A study of Mus musculus with 22 samples.

Results

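The 10 genes described here carry, store and release iron and recover it from heme. They were chosen as a named list of iron and heme handling genes (Hmox1, Fth1, Ftl1, Slc40a1, Tfrc, Trf, Hp, Hpx, Blvrb and Slc11a1), 10 of the 52526 distinct gene symbols in the data, and 9 of them were above the detection floor in enough mice to be tested. RNA came from the left 4th mammary fat pad of 22 female C57BL/6J mice aged 7 to 8 weeks, in 4 groups, into which 100000 EO771 cells had been injected. EO771 is a mammary cancer line of the same strain, here carrying firefly luciferase, and the tissue was taken 24 hours after engraftment. For 2 weeks before engraftment the mice had either a running wheel (wheel mice) or the hub of the wheel without the wheel (control mice). Every mouse also received liposomes a day before engraftment and again at engraftment, holding either PBS or clodronate, a drug that kills phagocytes which take the liposomes up. PBS liposomes went to 6 control and 6 wheel mice, and clodronate liposomes to 5 of each. All groups share the engrafted cells and the liposome injections, so none of them shows untreated mammary tissue, and the wheel was free, so that the running of a mouse is not fixed by its group.

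Mammals have no regulated way to excrete iron and mostly reuse it. Macrophages take up old red blood cells, and heme oxygenase opens the heme ring to free iron, carbon monoxide and biliverdin. Free iron is stored inside ferritin or leaves the cell through ferroportin, travels on transferrin in plasma and enters other cells through the transferrin receptor. Hemoglobin and heme that escape into plasma are bound by haptoglobin and hemopexin. In fat tissue, resident macrophages hold iron, and adipocytes secrete haptoglobin as an acute phase protein. These steps are the reason to look at the genes in a tissue where clodronate acts on phagocytes and where growing cancer cells need iron.

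Several of these messengers carry an iron responsive element, a short stem and loop in the RNA that is bound by iron regulatory proteins when iron is scarce. In a 5′ UTR the bound element holds back translation, and in a 3′ UTR it protects the messenger from decay, so that ferritin falls and the transferrin receptor rises in cells short of iron. The elements were searched for on the transcript strand as a bulged C, any 5 bases, the loop CAGTGN and 5 bases pairing with the first 5 (A with T, G with C, or G with T), in the longest coding transcript of each gene in GENCODE M21 (GRCm38). The search found 7 elements in 4 of the 10 genes, Fth1, Ftl1, Slc40a1 and Tfrc, while 1.24% of all 21877 genes held at least 1 match. The elements are shown because they differ in what they act on. Those in the 3′ UTR of Tfrc act on its RNA level. Those in a 5′ UTR act on translation, which RNA levels do not show, though the RNA of these genes can change by other routes. Each is written as DNA, 5′ to 3′ on the strand of the gene, 28 bases long, with the loop in capitals.
Fth1, 5′ UTR, chr19:9982732-9982759, plus strand: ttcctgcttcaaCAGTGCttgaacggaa
Ftl1, 5′ UTR, chr7:45459780-45459807, minus strand: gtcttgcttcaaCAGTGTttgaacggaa
Slc40a1, 5′ UTR, chr1:45925466-45925493, minus strand: caacttcagctaCAGTGTtagctaagtt
Tfrc, 3′ UTR, chr16:32631219-32631246, plus strand: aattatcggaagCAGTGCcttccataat
Tfrc, 3′ UTR, chr16:32631598-32631625, plus strand: cattatcgggagCAGTGTcttccataat
Tfrc, 3′ UTR, chr16:32631663-32631690, plus strand: ctatatcggagaCAGTGAtctccatatg
Tfrc, 3′ UTR, chr16:32631710-32631737, plus strand: aattatcgggaaCAGTGTttcccataat

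Levels are given in CPM, reads of a gene relative to the size of the library, and the authors raised every value below 1 to 1 before they deposited the data. The libraries read the 3′ ends of transcripts, about 1 read per transcript whatever its length, so levels of different genes can be set side by side. The libraries held 13256467 to 20484578 reads (median 16293026), of which 57.2% to 64.5% were assigned to genes, so that up to 13 to 20 reads of a gene, depending on the mouse, lie hidden under the floor. Changes are differences of log2(CPM + 1), which understates the change of genes near the floor, tested with limma over 15138 genes with Benjamini-Hochberg adjustment. In 5 mice the lymphocyte markers stood far above those of the other 17 (1 control and 1 wheel mouse with PBS liposomes, and wheel mice 3, 4 and 5 with clodronate liposomes), and control mouse 2 and wheel mouse 2 with clodronate liposomes had the highest skeletal muscle markers. Defining markers of the fat pad were high in every mouse, with summed adipocyte markers between 11130 and 30956 CPM. In a bulk tissue sample, fewer cells of a type and less RNA per cell cannot be told apart.

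Across the 22 mice the levels of the genes spanned more than 2 orders of magnitude. Fth1, the ferritin heavy chain, was the highest with a median of 801 CPM (588 to 1089), and ranked 33 among all gene symbols by mean level. Trf followed with a median of 379 CPM and Hp with 206 CPM. Blvrb had a median of 43.0 CPM, Ftl1 20.9 CPM and Tfrc 18.7 CPM. Hmox1 at 7.26 CPM, Slc40a1 at 7.09 CPM and Slc11a1 at 4.14 CPM were low, and Hpx was at the floor in all 22 mice. The order was not firm everywhere. Fth1 was above Trf in 22 of 22 mice and Hp above Blvrb in 22 of 22, while Ftl1 was above Tfrc in 13 of 22, Hmox1 above Slc40a1 in 14 of 22 and Slc40a1 above Slc11a1 in 16 of 22 mice.

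The genes also differed in how much they varied between mice of a group. On the log2 scale the SD within groups was lowest for Fth1 at 0.27, which is below that of all but 12.3% of the genes tested, and 0.36 for Blvrb. It was 0.44 for both Tfrc and Trf, 0.57 for both Ftl1 and Hp, and highest for Slc11a1 at 0.72, Hmox1 at 0.74 and Slc40a1 at 0.77.

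**Figure D1:**
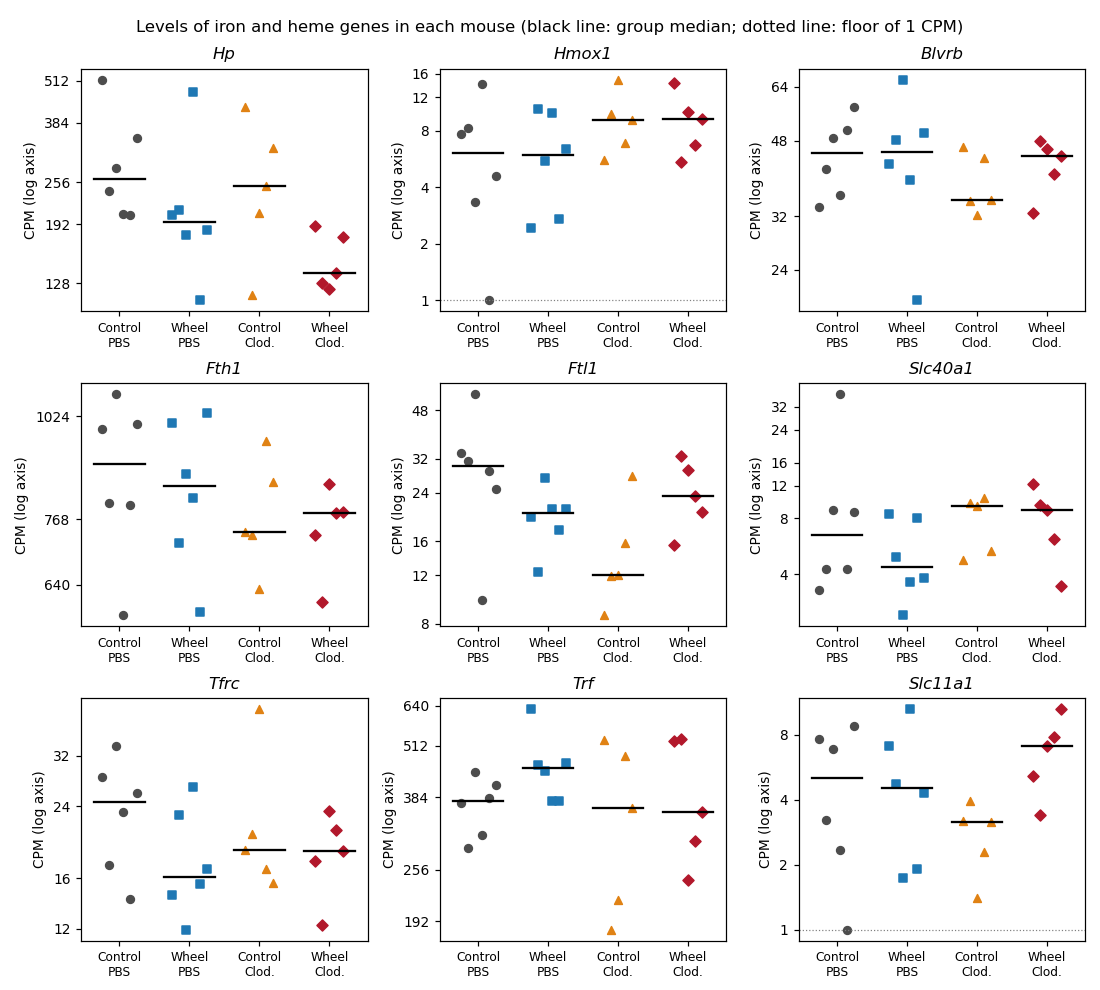
Level of 9 iron and heme genes in each of the 22 mice, in CPM on a log axis, by group (circles, control PBS; squares, wheel PBS; triangles, control clodronate; diamonds, wheel clodronate), with the group median as a black line and the floor of 1 CPM dotted. In the pairs of groups that differ only by activity or only by liposome, points overlap for all 9 genes. The wheel clodronate mice sit low and close together for Hp (123 to 189 CPM), and 1 control PBS mouse stands alone for Slc40a1 (37.4 CPM).

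By limma, 0 of the 9 genes tested were past an adjusted p of 0.05 in any of the 7 comparisons. Few genes of any kind did. The share of all genes called was 0% for wheel against control with PBS liposomes, 0.00661% for wheel against control with clodronate liposomes, 0% for clodronate against PBS in control mice, 0.00661% for clodronate against PBS in wheel mice, 0.205% for clodronate against PBS averaged over activity, 0% for wheel against control averaged over liposomes and 0% for the interaction. At an unadjusted p under 0.05, 0 of the 9 genes were past the threshold for the wheel with PBS liposomes (background 4.91% of all genes) and 3 of 9 with clodronate liposomes (background 10.4%). For clodronate against PBS it was 1 of 9 in control mice (background 6.99%), 0 of 9 in wheel mice (background 11.6%) and 0 of 9 averaged over activity (background 10.4%). For the wheel averaged over liposomes it was 1 of 9 (background 8.09%), and for the interaction 1 of 9 (background 7.58%). With 9 genes, counts of 0 or 1 are near these shares. The 3 genes of the wheel comparison with clodronate liposomes were Slc11a1, Hp and Ftl1, with changes of 1.01, -0.70 and 0.70. Without the 5 mice high in lymphocyte markers (chosen after the data were seen), which leaves 2 wheel clodronate mice, the changes were 0.50 (SE 0.59), -0.63 (SE 0.50) and 0.65 (SE 0.50), with unadjusted limma p of 0.409, 0.218 and 0.211, so that those of Hp and Ftl1 stayed close to their size in fewer mice.

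The groups overlapped for all 9 genes in each of the 4 comparisons of single groups. Over all genes tested, the share whose groups did not overlap was 0.264% for the wheel with PBS liposomes, 1.27% for the wheel with clodronate liposomes, 0.634% for clodronate in control mice and 1.26% for clodronate in wheel mice. The median change of all genes was -0.08, 0.00, -0.10 and 0.00 in the same order, and the median over the 9 genes was -0.06, -0.01, -0.16 and 0.06. Of 63 changes (9 genes in 7 comparisons), 27 were larger than their standard error, and the others are given below only as smaller than it.

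**Figure D2:**
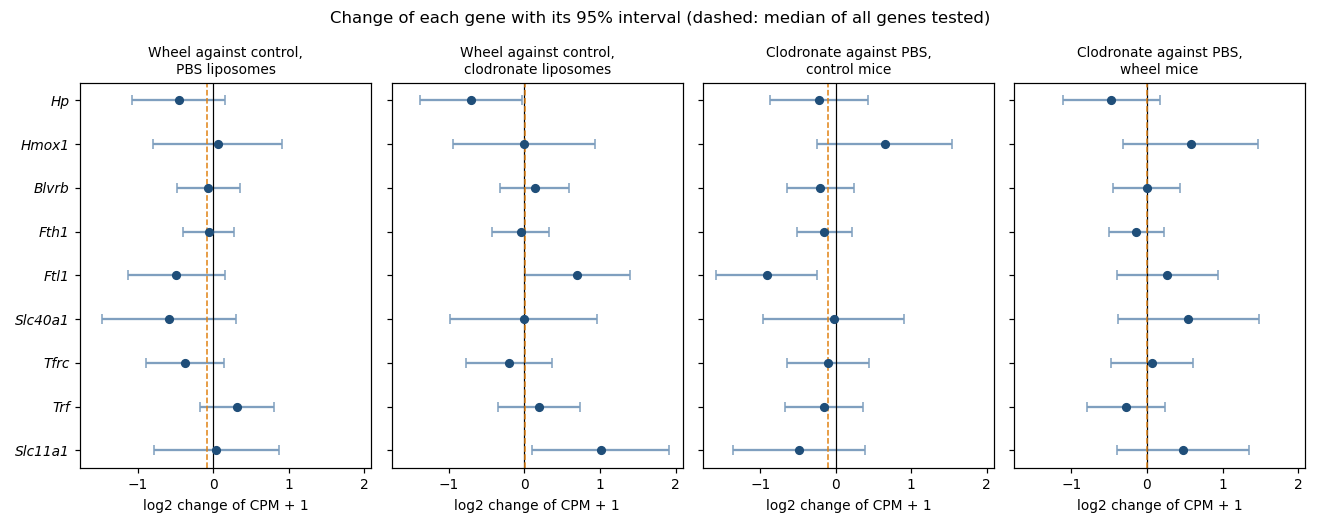
Change of each gene on the log2(CPM + 1) scale (points) with its 95% interval (bars) in the 4 comparisons of single groups, with the median change of all 15138 genes dashed. The intervals that lie on 1 side of 0 are those of Hp, Ftl1 and Slc11a1 for the wheel with clodronate liposomes and of Ftl1 for clodronate in control mice; none of them passes after adjustment over all genes.

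Haptoglobin, encoded by Hp (chr8:109575128-109579172), binds free hemoglobin so that it can be cleared through CD163 on macrophages. With PBS liposomes, Hp ranged from 205 to 516 CPM in control mice (median 261) and from 114 to 474 CPM in wheel mice (median 195). Under clodronate liposomes, Hp was 428, 118, 207, 248 and 322 CPM in the 5 control mice. In the 5 wheel mice with clodronate liposomes it was 189, 129, 123, 138 and 176 CPM. The wheel mice with clodronate liposomes were thus all at the low end, under 4 of the 5 control mice, and with PBS liposomes 3 of 6 wheel mice lay under the lowest control mouse.

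Hp differed in wheel mice by -0.46 (SE 0.30) on the log2 scale with PBS liposomes (limma adjusted p = 0.987) and -0.70 (SE 0.33) with clodronate liposomes (adjusted p = 0.446). Averaged over liposomes the difference was -0.58 (SE 0.22, unadjusted p = 0.0152, adjusted p = 0.587), and it kept its sign when any single mouse was left out (-0.71 to -0.48). The wheel differences with each liposome were not shown to be unequal (interaction -0.25, 95% interval -1.16 to 0.67). The wheel difference with PBS liposomes was -0.69 without wheel mouse 4 and -0.28 without control mouse 1 or wheel mouse 5. With clodronate against PBS, Hp differed by -0.47 (SE 0.31) in wheel mice (-0.23 without wheel PBS mouse 4), by -0.35 (SE 0.22, adjusted p = 0.613) averaged over activity and by less than its standard error in control mice. Liver is the main source of plasma haptoglobin. Of 8 liver markers only 2 could be tested, 3 (Ttr, Fga and Ahsg) were at the floor in every mouse, and their summed level ranged from 16.8 to 57.4 CPM in PBS mice and from 9.90 to 44.9 CPM in clodronate mice. Across the 22 mice Hp had r = -0.01 with the mean log2 level of the 2 tested liver markers. Their part in the level of Hp was not otherwise tested.

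Hemopexin, encoded by Hpx (chr7:105591613-105600137), binds free heme in plasma and is made mainly in the liver. It was at the floor in all 22 mice, so no level or change was measurable at this depth.

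Heme oxygenase 1, encoded by Hmox1 (chr8:75093621-75100589), cuts heme and is induced by it. With PBS liposomes, Hmox1 ranged from the floor of 1.00 to 14.2 CPM in control mice (median 6.12) and from 2.44 to 10.4 CPM in wheel mice (median 5.95). In control mice with clodronate liposomes it was 5.57, 9.75, 14.9, 6.86 and 9.05 CPM, and in wheel mice 14.3, 5.44, 10.1, 6.74 and 9.27 CPM. None of the 10 clodronate mice was under 5 CPM, against 5 of the 12 PBS mice, and the highest values of all groups but that of wheel mice with PBS liposomes were near 14 to 15 CPM.

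Hmox1 was 0.61 (SE 0.31) higher on the log2 scale with clodronate averaged over activity, which did not pass (unadjusted p = 0.0581, adjusted p = 0.497), with 0.65 (SE 0.43) in control mice and 0.58 (SE 0.43) in wheel mice. The averaged difference stayed between 0.45 and 0.74 when any single mouse was left out, while that in control mice fell to 0.32 without control PBS mouse 5, the mouse at the floor. Between wheel and control mice it differed by less than its standard error with either liposome. The low level limits these values, since 1 mouse was at the floor and the fitted change of a gene near the floor depends on the pseudocount.

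Biliverdin reductase B, encoded by Blvrb (chr7:27447978-27466144), is a flavin and biliverdin reductase that is abundant in red blood cells. Its level ranged from 20.4 to 66.5 CPM, with group medians of 45.0 CPM in control and 45.2 CPM in wheel mice with PBS liposomes. Under clodronate liposomes Blvrb was 46.3, 34.8, 32.2, 43.6 and 34.9 CPM in control mice and 32.5, 47.8, 46.0, 40.1 and 44.2 CPM in wheel mice. No change of Blvrb exceeded its standard error in any of the 7 comparisons.

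Ferritin is a shell of heavy chains, which oxidise iron, and light chains, which help it to form a mineral core. The heavy chain gene Fth1 (chr19:9980598-9985098) ranged from 588 to 1089 CPM in control mice (median 896) and from 592 to 1032 CPM in wheel mice (median 843) with PBS liposomes. Under clodronate liposomes Fth1 was 741, 734, 632, 955 and 852 CPM in control mice and 736, 609, 848, 781 and 784 CPM in wheel mice. The 4 groups shared most of their range, and the narrow spread of Fth1 makes its intervals the tightest of the 9 genes.

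The 95% interval for the wheel effect on Fth1 ran from -0.41 to 0.28 on the log2 scale with PBS liposomes and from -0.43 to 0.32 with clodronate liposomes. Clodronate against PBS averaged over activity gave -0.15 (SE 0.12, limma adjusted p = 0.713), and the other 6 changes of Fth1 were smaller than their standard errors.

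The light chain gene Ftl1 (chr7:45457944-45459884) was read at a far lower level. With PBS liposomes it ranged from 9.77 to 54.9 CPM in control mice (median 30.1) and from 12.3 to 27.3 CPM in wheel mice (median 20.2). Control mice with clodronate liposomes had 8.59, 11.9, 12.1, 15.7 and 27.5 CPM. In wheel mice with clodronate liposomes it was 15.5, 32.6, 29.0, 23.4 and 20.3 CPM. Of the control mice, 5 of 6 with PBS liposomes were above 24 CPM, and 4 of 5 with clodronate liposomes were under 16 CPM.

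In control mice Ftl1 differed by -0.92 (SE 0.32) on the log2 scale with clodronate against PBS, with an unadjusted p of 0.00938 and a limma adjusted p = 0.560. No other gene here had a smaller unadjusted p in any comparison. In wheel mice the same difference was smaller than its standard error, and averaged over activity it was -0.32 (SE 0.23, adjusted p = 0.656). The wheel differences were -0.49 (SE 0.31, adjusted p = 0.987) with PBS liposomes and 0.70 (SE 0.34, adjusted p = 0.478) with clodronate liposomes, and the interaction was 1.19 (SE 0.46, unadjusted p = 0.0160, adjusted p = 0.625), between 0.99 and 1.47 when any single mouse was left out. The largest of these came without control PBS mouse 4, whose Ftl1 was the lowest of its group at 9.77 CPM.

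Ftl1 is uncertain as a level. The last 400 bases of its transcript, where these libraries read, are covered over 100% of their length by stretches at least 97% identical in 8 other annotated genes, among them Ftl1-ps1, Ftl1-ps2 and Ftl2-ps, and reads that map to many places (16.6% to 19.9% of the reads in a library) were not assigned to genes. Of these copies, only Ftl1-ps1 was above the floor, at 1.83 to 13.6 CPM (median 5.31). Fth1 had no such copy. The ratio of Fth1 to Ftl1, with medians of 28.5, 44.2, 60.8 and 33.3 in the control PBS, wheel PBS, control clodronate and wheel clodronate mice, therefore does not measure the ratio of the chains, and whether the share of lost reads moved with the groups was not tested.

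Ferroportin, encoded by Slc40a1 (chr1:45908068-45926523), is the only known iron exporter of mammalian cells and is high in macrophages that recycle red blood cells. With PBS liposomes it ranged from 3.28 to 37.4 CPM in control mice (median 6.48) and from 2.40 to 8.47 CPM in wheel mice (median 4.37). The clodronate mice had 4.74, 9.69, 9.35, 10.3 and 5.36 CPM in control mice and 12.3, 9.47, 8.87, 6.20 and 3.46 CPM in wheel mice. Control PBS mouse 4, at 37.4 CPM, stood far above the next mouse of its group at 8.91 CPM, and the others of all groups lay under 13 CPM.

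For the wheel with PBS liposomes Slc40a1 differed by -0.59 (SE 0.43, limma adjusted p = 0.987), and by -0.16 without control PBS mouse 4. For clodronate against PBS in wheel mice it differed by 0.55 (SE 0.45, adjusted p = 0.698). The remaining 5 changes of Slc40a1 were smaller than their standard errors, and the 95% interval for clodronate in control mice, from -0.96 to 0.90, spanned falls and rises of close to 2-fold.

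The transferrin receptor, encoded by Tfrc (chr16:32608920-32632794), carries the 4 elements of its 3′ UTR shown above and is high in dividing cells and red cell precursors. With PBS liposomes Tfrc ranged from 14.2 to 33.7 CPM in control mice (median 24.6) and from 11.9 to 26.7 CPM in wheel mice (median 16.1). The clodronate mice had 18.7, 20.5, 41.7, 16.9 and 15.5 CPM in control mice and 17.6, 12.3, 23.4, 21.02 and 18.6 CPM in wheel mice. Control clodronate mouse 3, at 41.7 CPM, was the highest of all 22, and in PBS mice 4 of 6 control mice were above 23 CPM against 1 of 6 wheel mice.

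Tfrc differed by -0.37 (SE 0.25, limma adjusted p = 0.987) with the wheel under PBS liposomes and by -0.29 (SE 0.19, adjusted p = 0.702) averaged over liposomes, and its other changes were smaller than their standard errors. All 8 dividing cell markers also had lower fitted levels in both comparisons (63.8% and 57.3% of all genes did), with medians of -0.97 and -0.38. At an unadjusted p under 0.05 were 0 of them (background 4.91% and 8.09%), and their part in the level of Tfrc was not tested. The per-mouse ratio of Tfrc to Slc40a1, uptake against export, had medians of 3.56 and 4.51 in control and wheel mice with PBS liposomes and 2.90 and 2.64 with clodronate liposomes, within ranges that overlapped throughout (0.62 to 8.64 in control PBS mice).

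Transferrin, encoded by Trf (chr9:103204001-103230444), carries iron in plasma and is made in the liver and in several other tissues. With PBS liposomes Trf ranged from 289 to 441 CPM in control mice (median 377) and from 376 to 629 CPM in wheel mice (median 453). The clodronate mice had 528, 183, 216, 483 and 362 CPM in control mice and 526, 531, 242, 301 and 353 CPM in wheel mice. The clodronate groups were spread more widely than the PBS groups, with SDs of 0.68 and 0.50 on the log2 scale against 0.23 and 0.27.

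Trf was 0.31 (SE 0.24, limma adjusted p = 0.987) higher with the wheel under PBS liposomes and 0.25 (SE 0.18, adjusted p = 0.731) averaged over liposomes. With clodronate against PBS it differed by -0.28 (SE 0.25, adjusted p = 0.735) in wheel mice, and by 0.22 when the 5 mice high in lymphocyte markers were left out, a choice made after the data were seen. Averaged over activity it differed by -0.22 (SE 0.18, adjusted p = 0.699). A stretch of 29% of the last 400 bases of Trf is shared with the annotated gene Gm20425, which was at the floor, and 14% of those of Slc11a1 with Grin2a, at the floor too.

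NRAMP1, encoded by Slc11a1 (chr1:74375195-74386062), is known as a pump of iron and manganese out of the phagosome, made by macrophages and neutrophils. Only RNA was measured, so whether the protein works in these mice was not tested. With PBS liposomes it ranged from the floor of 1.00 to 8.75 CPM in control mice (median 5.05) and from 1.73 to 10.5 CPM in wheel mice (median 4.51). With clodronate liposomes it was 3.17, 3.96, 1.40, 2.29 and 3.17 CPM in control mice. In wheel mice with clodronate liposomes it was 5.17, 3.39, 7.11, 7.84 and 10.5 CPM. The control mice with clodronate liposomes were all under 4 CPM, and 4 of the 5 wheel mice were above them.

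With clodronate liposomes Slc11a1 was 1.01 (SE 0.44) higher on the log2 scale in wheel mice (unadjusted p = 0.0317, limma adjusted p = 0.402), and 0.53 (SE 0.30, adjusted p = 0.671) averaged over liposomes. The interaction was 0.96 (SE 0.60, adjusted p = 0.724), and clodronate against PBS gave -0.48 (SE 0.42) in control mice and 0.48 (SE 0.42) in wheel mice. The highest 3 wheel mice with clodronate liposomes were mice 3, 4 and 5, the ones with high lymphocyte markers, whose summed lymphocyte markers were 714, 764 and 485 CPM against 0 and 11.2 CPM in mice 1 and 2. Their summed macrophage markers were also high, at 605, 454 and 515 CPM against 202 and 251 CPM. Without the 5 mice high in lymphocyte markers, the wheel difference with clodronate liposomes was 0.50 (SE 0.59), and that of clodronate against PBS in wheel mice was -0.22. The part of these markers in the level of Slc11a1 was not tested.

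Markers of macrophages, the cells at which clodronate is aimed, overlapped between the liposome groups. Of 15 macrophage markers 14 were tested and 0 passed the adjusted threshold, by limma, in any comparison. In control mice 14 of 14 had lower fitted levels with clodronate (65.4% of all genes did), 2 of them at an unadjusted p under 0.05 (background 6.99%), with a median change of -0.35 against -0.10 for all genes. In wheel mice 8 of 14 had lower fitted levels (49.9% of all genes did), and at an unadjusted p under 0.05 (background 11.6%) 2 were higher and 0 lower. Summed macrophage markers ranged from 242 to 552 CPM in control PBS mice, 268 to 522 in wheel PBS mice, 223 to 396 in control clodronate mice and 202 to 605 in wheel clodronate mice.

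Beyond the 10 genes, 7 lists of other iron and heme genes were looked at, with 82 genes of which 77 were tested (iron transport and storage, iron sensing and hormone control, heme synthesis, heme uptake, export and breakdown, mitochondrial iron and iron-sulfur clusters, heme and iron responsive regulators, and targets of NRF2, a stress factor that also drives Hmox1 and ferritin). By limma, 0 of the 77 were past an adjusted p of 0.05 in any comparison. At an unadjusted p under 0.05, 5 of them differed with the wheel under PBS liposomes (1 higher), 4 under clodronate liposomes (1 higher), 10 with clodronate in control mice (2 higher), 10 with clodronate in wheel mice (1 higher), 12 with clodronate averaged over activity (1 higher), 3 with the wheel averaged over liposomes (0 higher) and 4 for the interaction (3 higher). As shares of the 77 these are 6.49%, 5.19%, 12.99%, 12.99%, 15.6%, 3.90% and 5.19%, to be read against the background shares above. Among all genes at an unadjusted p under 0.05, 16.3%, 67.4%, 12.9%, 52.4%, 20.5%, 48.6% and 83.8% were higher, in the same order.

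The gene of these lists with the smallest p was Me1, malic enzyme, an NRF2 target that also makes NADPH for fatty acid synthesis in adipocytes. Me1 ranged from 267 to 1506 CPM in control PBS mice and 252 to 931 in wheel PBS mice, against 93.9 to 574 in control clodronate and 81.4 to 685 in wheel clodronate mice, so the groups overlapped. It differed by -1.49 (SE 0.37) with clodronate averaged over activity (limma adjusted p = 0.0885), with -1.84 in control mice and -1.14 in wheel mice. All 10 adipocyte markers also had lower fitted levels with clodronate averaged over activity (57.4% of all genes did). Of these markers 5 were at an unadjusted p under 0.05 (background 10.4%) and 0 past the adjusted threshold, with a median of -0.41. Their part in the level of Me1 was not tested. Among the 10 NRF2 targets, 3 were lower at an unadjusted p under 0.05 and 0 higher in that comparison, where 10.4% of all genes passed and 1256 of those 1579 were lower.

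Alas2, the first enzyme of heme synthesis in red cell precursors, was 0.78 (SE 0.35, adjusted p = 0.447) higher with clodronate averaged over activity. All 6 tested red blood cell markers had higher fitted levels too, 1 at an unadjusted p under 0.05 (background 10.4%). Of all genes tested, 57.4% had lower fitted levels in this comparison. Fdxr, a ferredoxin reductase of mitochondria, differed by -0.77 (SE 0.27, adjusted p = 0.259) in the same comparison. In control mice, clodronate against PBS gave 0.73 for Maff and 0.66 for Mafk, small MAF partners of BACH1 and NRF2, and -1.23 for the metalloreductase gene Steap1 (adjusted p between 0.660 and 0.687 for the 3 genes). In wheel mice it gave -0.79 for Hfe, the gene of hereditary hemochromatosis (adjusted p = 0.384). Steap1 was at the floor in 2 of 6 control PBS and 3 of 5 control clodronate mice, so the size of its change is uncertain.

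Spic is a transcription factor that heme induces in red pulp macrophages and that drives ferroportin. It was at the floor in 5 of 6 control PBS, 4 of 6 wheel PBS and 4 of 5 control clodronate mice, and in wheel clodronate mice it was 1.00, 1.00, 5.59, 4.37 and 3.89 CPM. The 3 mice above the floor are again those with high lymphocyte markers, whose part in the level of Spic was not tested. With only 4 other mice above the floor, Spic reached the 5 mice needed for testing through this group alone, so its levels are given with no test. The counts above hold it as the 1 gene higher for the wheel with clodronate liposomes, the 1 higher for clodronate in wheel mice and 1 of the 3 higher for the interaction. Slc40a1 in the same 3 mice was 8.87, 6.20 and 3.46 CPM, not above the 12.3 and 9.47 CPM of the other wheel clodronate mice.

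For the wheel with PBS liposomes, Ltf, which encodes the iron binding milk and neutrophil protein lactoferrin, differed by 1.10 (SE 0.45), Lyrm4, a helper of iron-sulfur cluster assembly, by -0.66 (SE 0.30) and Blvra, the other biliverdin reductase, by -0.63 (SE 0.22), all with an adjusted p of 0.987. With clodronate liposomes the metal importer gene Slc39a8 differed by -1.36 (SE 0.50, adjusted p = 0.296) and Maff by -0.80 (SE 0.35, adjusted p = 0.406). Slc39a8 was at the floor in 4 of 5 wheel clodronate mice, against 2.35 to 8.09 CPM in control clodronate mice. In control PBS mice it ranged from 1.28 to 25.3 CPM (median 3.08), so the size of its changes is uncertain. Averaged over liposomes, Slc39a8 differed by -0.98 (SE 0.34, adjusted p = 0.567) and Fdx1, a mitochondrial ferredoxin, by -0.44 (SE 0.18, adjusted p = 0.587). For the interaction, Blvra gave 0.71 (SE 0.33) and Abcg2, an exporter of heme and other porphyrins, -0.74 (SE 0.30), with adjusted p of 0.649 and 0.625.

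From mouse to mouse, Trf, Fth1, Slc40a1 and Tfrc were related to the levels of some cell type markers. Only Trf with adipocyte markers passed under every alternative tried. Each gene was related to the mean log2 level of 9 marker lists across the 22 mice, 81 relations in all, with 100000 permutations and Benjamini-Hochberg adjustment over the 81. The lymphocyte list was left out, because its levels fell into 2 separate sets of 17 and 5 mice. Past an adjusted p of 0.05 were 8 of the 81 relations, by two-sided permutation.

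Trf rose and fell with adipocyte markers (r = 0.76, permutation p = 5e-05, adjusted p = 0.00405; rho = 0.69, p = 0.00051, adjusted p = 0.0120). Without the 2 mice farthest from the median of the markers r was 0.72, within the PBS mice 0.68 (n = 12) and within the clodronate mice 0.81 (n = 10), and r was 0.87 after group means were subtracted. The 2 mice with the lowest Trf, control clodronate mice 2 and 3 at 183 and 216 CPM, were also the 2 lowest in summed adipocyte markers, at 11130 and 13038 CPM. Trf also went with endothelial markers (r = 0.66, permutation p = 0.00083, adjusted p = 0.0211; rho = 0.57, p = 0.00658, adjusted p = 0.0666), but r fell to 0.47 without the 2 farthest mice.

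Trf went against dividing cell markers (r = -0.64, permutation p = 0.00124, adjusted p = 0.0211; rho = -0.68, p = 0.00053, adjusted p = 0.0120), with r = -0.68 without the 2 farthest mice, -0.62 within PBS and -0.85 within clodronate mice. It also went against neutrophil markers (r = -0.63, permutation p = 0.00181, adjusted p = 0.0244; rho = -0.59, p = 0.00493, adjusted p = 0.0570), with r = -0.59 without the 2 farthest mice, -0.39 within PBS and -0.75 within clodronate mice. This relation no longer passed without the 2 farthest mice, by rho, after group means were subtracted or without the 5 mice high in lymphocyte markers (adjusted p from 0.0512 to 0.132). Only 5 of 10 neutrophil markers were tested, and Ly6g and Camp, which define the cells, were at the floor in every mouse.

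Tfrc went with dividing cell markers (r = 0.60, permutation p = 0.00289, adjusted p = 0.0334; rho = 0.68, p = 0.00061, adjusted p = 0.0120). The relation was of like size within PBS mice (r = 0.59), within clodronate mice (r = 0.63), after group means were subtracted (r = 0.58) and without the 2 farthest mice (r = 0.57). By permutation it no longer passed after group means were subtracted, without the 2 farthest mice or with upper-quartile scaling (largest adjusted p = 0.0987). Control clodronate mouse 3, the mouse with the highest Tfrc, had summed dividing cell markers of 211 CPM, the highest of its group. Dividing cells may include engrafted EO771 cells. Whether these were in the samples, and how much of Tfrc came from them, was not tested.

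Slc40a1 went with epithelial markers (r = 0.66, permutation p = 0.00063, adjusted p = 0.0211; rho = 0.69, p = 0.00044, adjusted p = 0.0120), with r = 0.63 without the 2 farthest mice, 0.63 within PBS and 0.72 within clodronate mice. The 2 farthest mice were wheel PBS mice 3 and 5, so control PBS mouse 4, with 37.4 CPM of Slc40a1, stayed in. With macrophage markers Slc40a1 had r = -0.28. Fth1 went against epithelial markers (r = -0.65, permutation p = 0.0013, adjusted p = 0.0211; rho = -0.68, p = 0.00074, adjusted p = 0.0120), with r = -0.63 without the 2 farthest mice, -0.74 within PBS and -0.32 within clodronate mice. Fth1 went with adipocyte markers (r = 0.59, permutation p = 0.00364, adjusted p = 0.0368; rho = 0.61, p = 0.00292, adjusted p = 0.0394), with r = 0.54 without the 2 farthest mice, 0.69 within PBS and 0.40 within clodronate mice. After group means were subtracted neither relation of Fth1 passed (adjusted p = 0.0546 with epithelial and 0.1004 with adipocyte markers), and the one with adipocyte markers did not pass without the 2 farthest mice (adjusted p = 0.128).

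Of the genes known from macrophages, Slc11a1 had r = 0.49 with macrophage markers (adjusted p = 0.0907), which did not pass, and Hmox1 had r = 0.18. Hp was within the threshold for no list, with its largest r at 0.45 for adipocyte markers. That r was -0.07 within PBS mice (n = 12) and 0.81 within clodronate mice (n = 10), and the difference between the 2 was not tested. CPM values share 1 total per mouse, so r was also computed with upper-quartile scaling, which gave 0.79 for Trf with adipocyte markers, 0.65 for Slc40a1 with epithelial markers and 0.54 for Tfrc with dividing cell markers. With this scaling the relation of Tfrc did not pass.

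**Figure D3:**
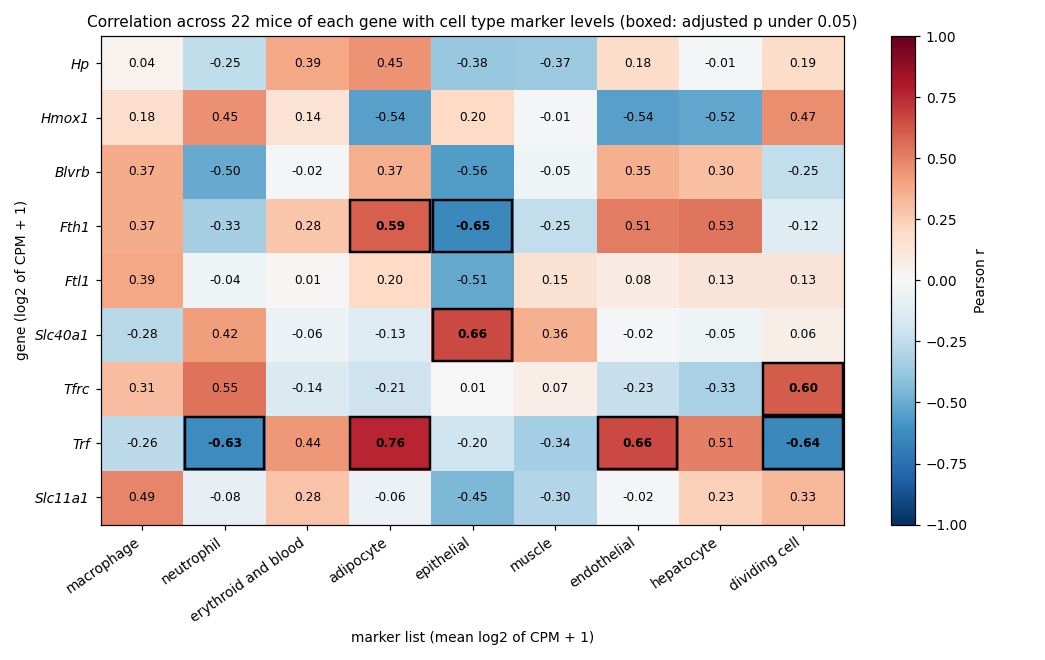
Pearson r across 22 mice between the log2(CPM + 1) level of each gene (rows) and the mean log2(CPM + 1) level of each marker list (columns), red for positive and blue for negative, with the 8 relations past an adjusted p of 0.05 boxed. Trf has 4 of the 8, among them the strongest, 0.76 with adipocyte markers.

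Among the genes themselves, 36 pairs were related across the 22 mice and 0 passed an adjusted p of 0.05, by permutation, with r between -0.45 (Tfrc with Trf) and 0.53 (Fth1 with Ftl1). At an unadjusted p under 0.05 were 5 pairs, Fth1 with Ftl1, Blvrb, Slc11a1 and Hp, and Tfrc with Trf. The partners of uptake and export did not mirror each other, with r = 0.20 for Tfrc with Slc40a1.

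The genes whose pattern across the 22 mice was most like each of the 9 were named by Pearson r over the genes tested, as a description. Hp was most like Lrg1 (r = 0.88) and Serpina3n (r = 0.86), which both encode acute phase proteins, followed by Hspd1 (r = 0.79). The 3 mice with the highest Hp, control PBS mouse 1, wheel PBS mouse 4 and control clodronate mouse 1 at 516, 474 and 428 CPM, were also the 3 highest for Lrg1, at 248, 312 and 188 CPM. For the wheel with PBS liposomes Lrg1 differed by 0.04, Serpina3n by -0.57 and Hp by -0.46, and with clodronate liposomes by -0.48, -0.39 and -0.70 in the same order. None of these passed the adjusted threshold, and the differences between the genes were not tested.

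Trf was most like Hint2 (r = 0.88), B3galt2 (0.84) and Fkbp7 (0.84). Tfrc was most like Cenph (r = 0.85), which encodes a centromere protein, Tpm4 (0.81) and Glrx (0.81). Slc40a1 was most like Vdr (r = 0.79), the vitamin D receptor gene, Cyp2s1 (0.79) and the hair keratin gene Krt32 (0.78), and control PBS mouse 4 had 94.9 CPM of Vdr, the highest of its group. Krt32 was at the floor in 5 of 6 control PBS, 5 of 6 wheel PBS and 2 of 5 mice of each clodronate group, with 53.4 CPM in 1 control PBS mouse. Cyp2s1 was at the floor in 4 of 6, 6 of 6 and 1 of 5 in the same order. Fth1 was most like Esyt1, Igfbp7 and Dtnbp1 (r = 0.84 each). Ftl1 was most like Dpysl2 (r = 0.79), Chuk (0.77) and Cnep1r1 (0.76), and Blvrb most like Rab5b (0.83), Plod1 (0.82) and Slc25a33 (0.81). Hmox1 was most like Pcf11 (r = 0.77), Rps18-ps3 (0.75) and Chfr (0.73), and Slc11a1 most like Taf5 (0.78), Tma7 (0.77) and Efcab2 (0.74). These values of r are a description of the 22 mice, and the genes were picked from 15138 for being high.

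**Figure D4:**
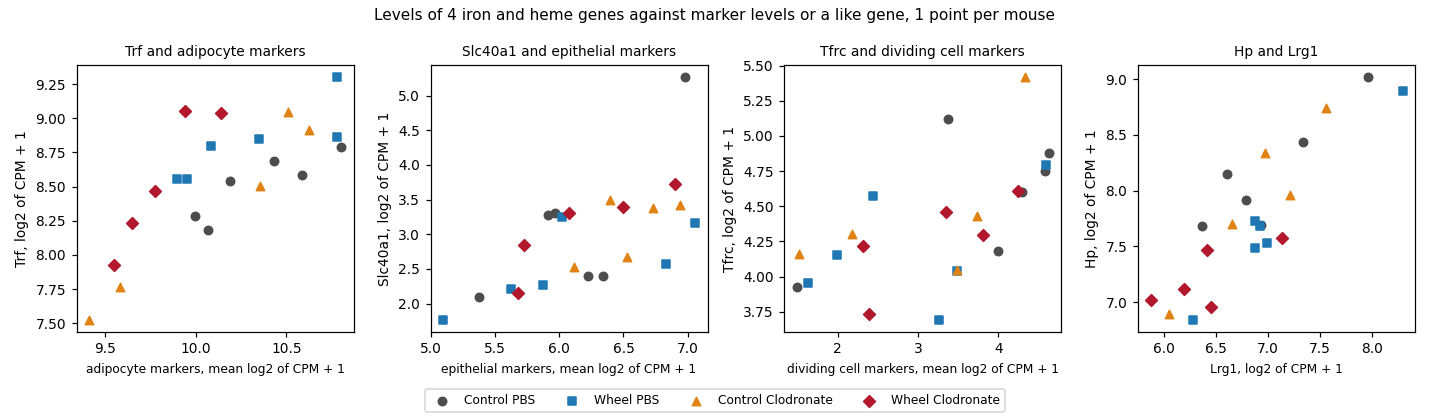
Log2(CPM + 1) level of Trf, Slc40a1, Tfrc and Hp (vertical axes) against the mean log2(CPM + 1) of adipocyte, epithelial and dividing cell markers and the log2(CPM + 1) level of Lrg1 (horizontal axes), with 1 point per mouse and the groups by colour and shape. Each panel rises from left to right (r = 0.76, 0.66, 0.60 and 0.88), with the groups mixed along it for Trf, Slc40a1 and Tfrc. For Hp the wheel clodronate mice (123 to 189 CPM) all lie under the control PBS mice (205 to 516 CPM).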

How the data were processed

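RNA of 22 mice was measured by QuantSeq 3′ libraries. The authors mapped reads (STAR 2.5.3a and GRCm38 in the submitters' processing notes) and deposited a signal per gene and mouse, CPM with values below 1 raised to 1; how reads were counted is not given in the sources used here. Of the values over 1 CPM, 100% were multiples of a single read (within 0.05), which gives the depth. Because the floor hides the reads of low genes, tests for counts were not used. Groups and replicate numbers came from the labels, where all mice belong to the same experiment and each sample is named only by group and number; if samples were not from separate mice, p-values would measure only the spread between them.

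Rows that name no gene were left out, and of 110 symbols listed more than once 1 row each was kept. The 15138 genes above 1 CPM in at least 5 mice were tested on log2(CPM + 1) in R 4.3.3 by moderated linear models (limma 3.58.1, 4 group means, trended prior variance, Benjamini-Hochberg adjustment), a step tested on simulated data. The design set no filter that the floor allows, so this one was chosen after the floor was seen. Relations were tested with numpy 2.4.6 in Python 3.11.15, and near-identical copies were sought with BLAST 2.17.0 (at least 50 bases). Genes, places and elements come from GENCODE M21, with 1 element search over the longest coding transcript of each gene.

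Named were all 10 genes in every comparison, then of the other iron and heme lists every gene past an adjusted p of 0.05 or, with none, up to 2 genes each way with an unadjusted p under 0.05 and the largest change, and the 3 genes most like each of the 9 tested by r. The 10 genes and the lists were chosen with earlier results of these data known. Spic, Lrg1, Serpina3n and Vdr values by mouse, and the mouse counts given beside some genes, were chosen after the values were seen. Alternatives were pseudocounts of 0.1, 5 or none, other filters (none, or a mean of 5 CPM), upper-quartile scaling or scaling to assigned reads, no variance trend, the compared groups alone, a replicate block and the omission of each mouse in turn.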

Additional observations from a re-analysis of the deposited data

Results flagged for a closer look

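A mouse was looked for that stood far from its group, by the gap to its nearest neighbour over the range of the group on the log2(CPM + 1) scale, for 9 genes in 4 groups (36 in all). Chance flags about 1 in 20 groups, here 1.8 of 36. The only such value was Tfrc in control clodronate mouse 3, at 41.7 CPM against 20.5 CPM in the nearest mouse and 15.5 CPM in the lowest of that group, a gap of 0.72 of the range against a limit of 0.71. The mouse also had the highest summed dividing cell markers (211 CPM) and neutrophil markers (66.3 CPM) of its group, and their part in the level of Tfrc was not tested. Without it, the change of Tfrc with clodronate in control mice was -0.34 (SE 0.25) in place of -0.10.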

How the results depend on the processing

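None of the 9 genes tested passed a limma adjusted p of 0.05 in any of 1712 fits of a gene under an alternative. The smallest adjusted p was 0.200, for Ftl1 with clodronate in control mice without control PBS mouse 4. The count of the 9 genes called was thus 0 throughout, and from 0 to 0 when any single mouse was left out. The genes of the other iron and heme lists were not followed under the alternatives. Of the 27 changes larger than their standard error, 2 turned their sign, both for clodronate against PBS in wheel mice without the 5 mice high in lymphocyte markers (Slc11a1 to -0.22 and Trf to 0.22), and of the 36 smaller ones 25 turned it under some alternative. Past the threshold were 8 relations, against 4 after subtracting group means and 5 without the 2 farthest mice. These counts are over all relations, so they can hold others than the 8. Trf with adipocyte markers passed under all 6 alternatives (r 0.69 to 0.87). Trf with endothelial markers was lost by rho and without the 2 farthest mice, Trf with dividing cell markers and Slc40a1 with epithelial markers were lost without the 5 mice high in lymphocyte markers (adjusted p = 0.0633 and 0.0643), and Tfrc with dividing cell markers after subtracting group means, without the 2 farthest mice and with upper-quartile scaling (largest adjusted p = 0.0987).

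The count over all genes moved more. With clodronate averaged over activity the 31 calls became 54 among genes averaging 5 CPM or more, 24 without a filter, 20 without a variance trend, 15 with assigned reads, 12 with upper-quartile scaling, 11 with the replicate block, 0 without the 5 mice high in lymphocyte markers, 0 without the 2 mice highest in muscle markers (both sets chosen after the data were seen) and 9 to 146 without any 1 mouse. For the wheel with clodronate liposomes the 1 call became 0 to 12, for clodronate in wheel mice the 1 call became 0 to 40, and 0 to 236 and 0 to 51 without any 1 mouse. Clodronate in control mice had 0 calls, and 0 to 38 without any 1 mouse. Without a filter the wheel averaged over liposomes and the interaction had 2 calls each in place of 0. Upper-quartile scaling moved the median change of all genes for clodronate in control mice from -0.10 to -0.01, and the share of higher genes among those at an unadjusted p under 0.05 from 12.9% to 44.0%; with the wheel under PBS liposomes it moved from 16.3% to 50.1%.

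Replicate numbers are shared by different mice, and same-numbered mice did not deviate together in every pair (mean r from -0.08 to 0.18), so the replicate block is an alternative only; with it 0 of the 9 genes were called in any comparison. Among the 10 genes, the floor limits Hmox1, Slc11a1 and Hpx. With 5 or 6 mice a group, changes under about 1 on the log2 scale were within the interval for Hmox1, Slc40a1 and Slc11a1.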
